A study of Mus musculus with 4 samples.

Results

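RNA of the injured spinal cord was compared between ApoE3 and ApoE4 mice at 21 days post injury (dpi). The genes compared are the rows at 21 dpi whose FPKM averaged at least 1 over both groups. FPKM are fragments scaled to transcript length and library size. The genes compared were 11400 of the 11474 rows listed at 21 dpi, in a series that lists 25601 rows over 7 and 21 dpi. A gene that is not listed is not shown to be unexpressed. At 21 dpi, 3246 symbols listed at 7 dpi were missing, and 37 of 60 cytosolic ribosomal protein genes were listed. The reason was not tested. A few list members below this level are named with their values and were not counted among the genes past 2-fold. The mice were males of 2 targeted replacement lines, which carry human ApoE3 or human ApoE4 coding sequence in place of mouse Apoe. All had an incomplete cord injury, a 50 kdyne contusion, and RNA was sequenced from a piece of cord of about 4 mm that held the lesion. RNA came from 3 mice per group, but the deposited table gives 1 value per gene and group. A replicate check was therefore not possible from these values, and no test was run. The authors' own p-values and q-values were not used. Uninjured cord was not analysed here, so the values compare 2 injured groups and do not show a response to injury.

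The columns of the table can be read in 2 ways. Its rows call the comparison ApoE3 versus ApoE4, and a positive ratio was taken as higher in ApoE3, which is how the study reads it. The numbering of the columns would pair the numerator with ApoE4, and every direction given here would then be the opposite. The Apoe row does not settle this, because a level does not show which human isoform was transcribed. It had 843 FPKM in ApoE3 and 1311 FPKM in ApoE4.

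ApoE is the main lipid carrier of the central nervous system. Astrocytes and microglia secrete it, and it returns cholesterol from myelin debris to cells that rebuild membranes. A contusion leaves a lesion core of macrophages and fibroblasts, bordered by reactive astrocytes. Schwann cells and sensory axons of the dorsal roots lie close to the cord and can enter such a lesion, and back muscle surrounds the vertebrae over it. For that reason the genes are given by cell type and tissue, with lists of markers for tissues outside the cord beside those of its own cells. The lists were chosen with earlier results of these data known, so which lists stand out is not independent of the values.

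Most genes were listed at a lower level in ApoE3 than in ApoE4. Of the 11400 genes, 94.1% had a ratio below 0, and the median log2 ratio was -0.42, so that a typical gene was 1.34-fold higher in ApoE4. Summed over genes, the table held 1513867 FPKM in ApoE3 and 2050622 FPKM in ApoE4, a 1.35-fold difference. At 7 dpi the sums were 1669387 and 1669584 FPKM. The shift was nearly the same at every level of expression, since the median ratio of 10 bins of genes ordered by mean FPKM lay between -0.37 and -0.44. The authors reduced all libraries to a common number of reads, and 1 library of the study aligned less well than the others. Its group is not given in the sources used here, and its part in the shift was not tested. Subtracting this median gives what is called here the centred log2 ratio. The ratio is computed on FPKM plus 1 and so understates differences of genes with low values. Before the subtraction, every centred value between 0 and 0.42 is negative.

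**Figure D1:**
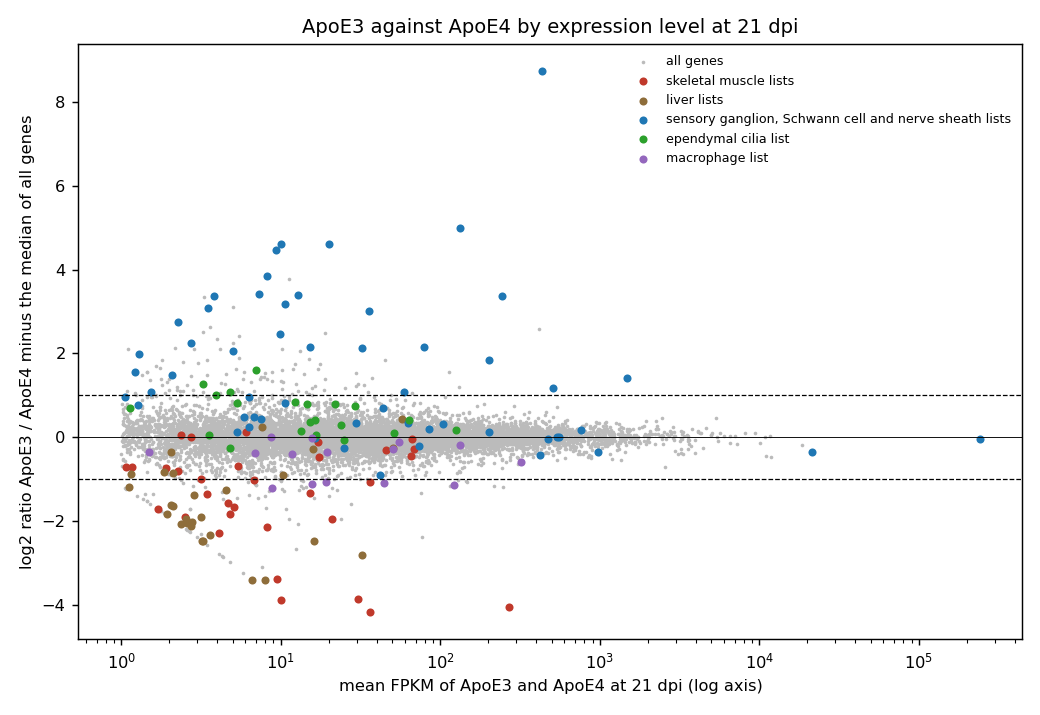
Each point is a gene at 21 dpi, placed by its mean FPKM over ApoE3 and ApoE4 (log axis) and by its centred log2 ratio, where values above 0 are higher in ApoE3. Dashed lines mark 2-fold. Genes of the sensory ganglion, Schwann cell and nerve sheath lists (blue) form most of the highest points, and genes of the skeletal muscle (red) and liver lists (brown) most of the lowest, down to -4.17 for Myl1.

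Past 2-fold, 137 genes were higher in ApoE3, 1.20% of those compared, and 126 were higher in ApoE4, 1.11%. At 7 dpi the same rule gave 40 genes higher in ApoE3, 0.287% of 13951, and 24 higher in ApoE4, 0.172%. ApoE3 thus held 52.1% of the genes past 2-fold at 21 dpi, but which group held more depended on the settings. The share was 42.6% with a pseudocount of 0.1, 45.6% with FPKM scaled to equal medians, 48.9% with the ribosomal protein and proteasome median subtracted, and 47.9% with the columns read by number, a setting added after seeing the data. Without any subtraction the counts were 71 and 419, and ApoE3 held 14.5%. The genes nearest the threshold were H2-Aa, at 1.001, and Thbd, at 0.995, on the ApoE3 side, and Etfbkmt, at -1.003, and BC049352, at -0.998, on the ApoE4 side. Many of these genes were low. The median mean FPKM was 6.49 for those higher in ApoE3 and 5.57 for those higher in ApoE4. Of the latter, 31 were listed at 0 in ApoE3. A gene below 1 FPKM in 1 group was kept only if the other group was above it, so the filter set its direction before centring. In the bin of lowest expression, with a median of 2.26 FPKM, 8.33% of genes were past 2-fold, compared with 0.351% in the highest bin, with a median of 508 FPKM. Of the genes past 2-fold, 31 of 137 and 38 of 126 belong to 1 of 12 lists of tissues outside the cord.

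**Figure D2:**
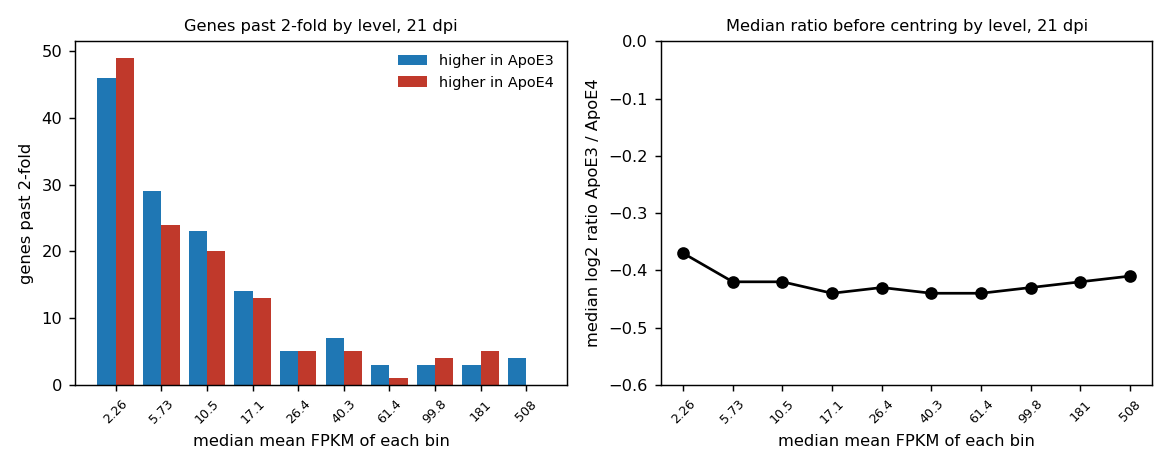
The left panel counts genes past 2-fold in 10 bins of 1140 genes ordered by mean FPKM at 21 dpi, with blue bars for genes higher in ApoE3 and red bars for genes higher in ApoE4. The right panel gives the median log2 ratio of each bin before centring. Counts drop from 46 and 49 in the lowest bin to 4 and 0 in the highest, whereas the median stays between -0.37 and -0.44.

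The genes that stood highest in ApoE3 were those of peripheral nerve. Schwann cells wrap the axons of nerves and roots, whereas oligodendrocytes myelinate those of the cord. Of 24 genes in the list of Schwann cells and peripheral myelin, 22 were listed, 14 were past 2-fold higher in ApoE3 and none was past 2-fold higher in ApoE4. Their median was 1.29, against 0 for all genes by construction, and it was 0.87 before centring.

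Several of these genes have known parts in Schwann cells and their myelin. Dhh, a hedgehog signal by which Schwann cells direct the formation of the nerve sheath, had 15.8 FPKM in ApoE3 and 0.555 FPKM in ApoE4. Drp2, which anchors the Schwann cell membrane to its cytoskeleton, had 294 and 109 FPKM. Ncmap, a protein of the noncompact layers of myelin, had 122 and 35.7 FPKM, and Cdh1, the cadherin that joins the layers of 1 Schwann cell to each other, had 2.44 and 0.162 FPKM. Fam178b, with 256 and 9.80 FPKM, and Plekha4, a phosphoinositide-binding protein with 435 and 55.2 FPKM, were past 8-fold. Egr2, the transcription factor that switches on peripheral myelin genes, differed less, with 73.0 FPKM in ApoE3 and 46.1 FPKM in ApoE4 and a ratio of 1.07.

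List members that oligodendrocytes also express did not share this difference. Mbp, the most abundant gene of the table, had 201348 FPKM in ApoE3 and 278678 FPKM in ApoE4, and a ratio of -0.05. Sox10, a transcription factor of both cell types, had a ratio of 0.19, which is negative before centring, and S100b, a calcium-binding protein of glia, had -0.35. Without members shared with other lists, the Schwann cell median was 1.92. Because Mbp dominates the sum, the list totalled 223112 FPKM in ApoE3 and 309235 FPKM in ApoE4. Of its members, 5 were below 1 FPKM in ApoE4 and reached the minimum level only through ApoE3, so the filter set their direction. In these bulk samples, fewer cells of a type and less RNA per cell cannot be told apart. How much peripheral nerve each piece of cord held was not tested.

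Genes of sensory neurons stood beside those of Schwann cells. The cell bodies of these neurons lie in the dorsal root ganglia, and nociceptors are those that report painful stimuli. Of 25 genes in the list of nociceptors and sensory ganglion neurons, 22 were listed and 20 reached the minimum level. Of these, 10 were past 2-fold higher in ApoE3 and none was past 2-fold higher in ApoE4, with a median of 1.15. The median was 0.43 when a mean of at least 5 FPKM was required, which left out the lower members.

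The genes past 2-fold included receptors, channels and transcription factors. P2rx3, a channel opened by ATP, had 24.1 FPKM in ApoE3 and 6.51 FPKM in ApoE4. Pirt, a regulator of the capsaicin channel, had 23.5 and 2.13 FPKM, and Tmem233, a small membrane protein of nociceptors, had 7.56 and 0.107 FPKM. Prdm12, a transcription factor needed for nociceptors to form, had 6.80 FPKM in ApoE3 and 0.237 FPKM in ApoE4. Gfra3, the receptor for artemin, had 2.04 and 0.387 FPKM, and Isl1, a transcription factor of sensory and motor neurons, had 3.15 FPKM in ApoE3 and a ratio of 1.48. These 6 genes all lay between 1.48 and 3.39 on the centred scale.

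Some members that neurons of the cord also express were not past 2-fold. Calca, which encodes the peptide CGRP and is also made by motor neurons, was the most abundant member with 702 FPKM in ApoE3 and 829.5 FPKM in ApoE4. Sst, made by dorsal horn interneurons, had 473 and 636 FPKM and a ratio of 0.00. Calcb, the second gene for the peptide, had 23.5 FPKM in ApoE3 and 60.6 FPKM in ApoE4, a ratio of -0.91. The list summed to 1798 FPKM in ApoE3 and 2266 FPKM in ApoE4. Below 1 FPKM in ApoE4 were 8 members, of which Mrgprd and Trpv1 were listed at 0. Such members could reach the minimum level only through ApoE3, so the filter set their direction. A few other genes known from sensory neurons were picked out after the values were seen. Piezo2, the ion channel of touch, had 39.6 and 21.5 FPKM, Asic3, an acid-sensing channel, had 20.9 and 11.7 FPKM, Oprm1, the mu opioid receptor, had 19.4 and 8.53 FPKM, and Pou4f1, a transcription factor of sensory neurons, had 32.1 and 18.8 FPKM. All 4 were past 2-fold higher in ApoE3. Whether ganglion tissue was part of the dissected pieces was not tested.

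The connective tissue around nerves and the cord showed a related pattern with fewer genes. Of 17 genes in the list of nerve sheath fibroblasts, 14 reached the minimum level and 5 were past 2-fold higher in ApoE3, with a median of 0.83. Dcn, the small proteoglycan decorin that binds collagen fibrils, had 61.9 FPKM in ApoE3 and 9.37 FPKM in ApoE4. Mfap5, a protein of elastic microfibrils, had 19.2 and 1.97 FPKM. Igfbp6, a binding protein for insulin-like growth factors, had 16.5 and 3.24 FPKM, and Islr had 50.0 and 14.5 FPKM. Gsn, the actin-severing protein gelsolin and the most abundant member, had 460.4 and 617 FPKM and a ratio of 0.00, and the list summed to 994 FPKM in ApoE3 and 1080.2 FPKM in ApoE4.

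Fibroblasts of the meninges, the membranes that wrap the cord, were represented by 10 of 19 genes. All 10 lay above the median of all genes, with a median of 0.94, or 0.52 before centring, and 2 were past 2-fold. The second of these beside Dcn was Slc6a13, a GABA transporter of the meninges, with 11.2 FPKM in ApoE3 and 5.24 FPKM in ApoE4. Igf2, the most abundant member, had 126 and 87.4 FPKM, a ratio of 0.95. The list summed to 221 FPKM in ApoE3 and 118 FPKM in ApoE4, and MHC class II was the only other list with a higher total in ApoE3.

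Scar genes that fibroblasts share with other cells did not stand apart as a group. Of 24 listed genes for fibrotic scar and matricellular proteins, 13 had centred ratios above 0 and 11 below. Their median was 0.13, which is negative before centring, and the genes past 2-fold were Mfap5 and Dcn. Postn, or periostin, a matrix protein of the fibrotic scar, had 17.4 FPKM in ApoE3 and 26.1 FPKM in ApoE4, and Fn1, or fibronectin, had 454 and 511 FPKM. Of 17 listed collagen chains, 1 was past 2-fold, and their median of 0.42 became 0.00 before centring. That chain was Col28a1, a collagen of peripheral nerve, with 6.83 FPKM in ApoE3 and 1.45 FPKM in ApoE4. The fibrillar chains Col1a1, with 2.44 and 2.27 FPKM, and Col3a1, with 2.31 and 1.79 FPKM, were low in both groups. Hspg2, the basement membrane proteoglycan perlecan, was outside the lists and chosen after its values were seen, with 66.1 FPKM in ApoE3 and 24.1 FPKM in ApoE4.

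Genes of motile cilia, which ependymal cells beat to move fluid in the central canal, were past 2-fold in part. Of 21 listed genes for ependymal cilia, 19 lay above the median of all genes and 4 were past 2-fold higher in ApoE3. The list median was 0.42 and became 0.00 before centring, and the list summed to 451 FPKM in ApoE3 and 472 FPKM in ApoE4. Dnah11, a dynein motor of the outer arms, had 10.1 FPKM in ApoE3 and 3.89 FPKM in ApoE4. Pifo had 4.49 and 2.05 FPKM, Ak7, an adenylate kinase of cilia, had 6.10 and 3.51 FPKM, and Cfap52 had 4.92 and 2.94 FPKM. Cfap52 was near the threshold and fell short of it when the median of ribosomal protein and proteasome genes was subtracted instead. Foxj1, the transcription factor that starts the ciliary program, had 45.5 FPKM in ApoE3 and 56.9 FPKM in ApoE4, a ratio of 0.10 that is negative before centring. Other genes of cilia past 2-fold were found after the values were seen. Cdhr3 had 17.9 FPKM in ApoE3 and 6.48 FPKM in ApoE4, Ccdc153 had 42.8 and 23.6 FPKM, and Kif19a, a kinesin that limits the length of cilia, had 23.4 and 13.9 FPKM.

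Antigen presentation on MHC class II, by which phagocytes show peptides to helper T cells, had a few genes past 2-fold. Of 6 listed genes, 5 lay above the median of all genes, 2 were past 2-fold and the median was 0.82, or 0.40 before centring. H2-Eb1 had 7.35 FPKM in ApoE4 and a ratio of 1.16, and H2-Aa had 18.9 and 12.3 FPKM. H2-Aa stood on the threshold and also fell short of it with that subtraction. H2-Ab1, with 18.0 and 13.3 FPKM, and Cd74, the chaperone of these chains, with 47.2 and 35.8 FPKM, had ratios of 0.83 and 0.81. The list summed to 104 FPKM in ApoE3 and 77.5 FPKM in ApoE4. The class I list, whose proteins present peptides from within the cell, had a median of -0.10 over 13 genes and none past 2-fold.

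Among the remaining genes highest in ApoE3 were several of other functions. Slc36a2, a transporter that carries small amino acids with protons, had 21.3 FPKM in ApoE3 and a ratio of 3.77. Trarg1, which guides the glucose transporter GLUT4 in fat cells, had 9.39 and 0.617 FPKM. Nr4a2, an orphan nuclear receptor, and Egr2 were the 2 of 18 listed immediate early genes past 2-fold, with 7.65 and 2.78 FPKM for Nr4a2. The median of that list was 0.13, which is negative before centring. Fos, the most used marker of this class, had 7.85 FPKM in ApoE3 and 14.2 FPKM in ApoE4. Slc17a7, a vesicular glutamate transporter of sensory afferents, had 3.06 and 0.519 FPKM and was the 1 of 17 listed genes for glutamate receptors and transporters past 2-fold. Rtn4rl2, a receptor related to that for Nogo, had 7.22 and 4.23 FPKM and was the 1 of 10 listed genes for growth inhibition past 2-fold. Mlip, which binds lamin and was chosen after its values were seen, was past 4-fold, with 681 FPKM in ApoE3 and 151 FPKM in ApoE4.

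On the opposite side, higher in ApoE4, skeletal muscle genes had the lowest single ratios. The list of liver plasma proteins, described below, had a lower median. Of 32 genes of the sarcomere, the contractile unit of muscle, 20 were listed, 12 were past 2-fold higher in ApoE4 and none was past 2-fold higher in ApoE3. Their median was -1.51, and 19 of 20 lay below the median of all genes. Of these 20, 6 were below 1 FPKM in ApoE3 and reached the minimum level only through ApoE4. In ApoE3 the list summed to 227 FPKM and in ApoE4 to 1085 FPKM, with Tnnt3, the fast form of troponin T, the most abundant member. Of 22 genes for calcium handling and energy of muscle, 12 were listed and 5 were past 2-fold higher in ApoE4, with a median of -0.85. This list summed to 71.0 FPKM in ApoE3 and 168 FPKM in ApoE4, with Eno3 the most abundant.

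Genes of fast muscle fibres had most of the largest ratios. Tnnc2, the calcium sensor troponin C of fast fibres, had 0.0562 FPKM in ApoE3 and a ratio of -3.89. Atp2a1, the pump that returns calcium to the sarcoplasmic reticulum of these fibres, had 0.411 and 18.6 FPKM. Mylpf, a fast light chain of myosin, had 6.04 and 35.5 FPKM, and Myh4, a fast heavy chain, was listed at 0 in ApoE3 and had 3.40 FPKM in ApoE4. Tcap, a protein of the Z disc, had 0.344 FPKM in ApoE3 and 7.81 FPKM in ApoE4. Slow fibre genes were mixed. Myh7, their heavy chain, had 18.7 FPKM in ApoE3 and 54.3 FPKM in ApoE4 and was past 2-fold, whereas Tnnt1 had a ratio of -0.48, Tnni1 one of -0.03 and Tnnc1 one of 0.01, which is negative before centring. Myl7, a light chain best known from the atrium of the heart, had 1.64 FPKM in ApoE3 and 14.7 FPKM in ApoE4. Of 13 myogenic regulators, the genes of muscle precursors, 1 was listed, Mymk, at 1.28 FPKM in ApoE3 and 3.65 FPKM in ApoE4. The levels of the others are not known. Whether muscle tissue was part of the dissected pieces was not tested.

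The promoters of these genes were searched for a shared motif, and motif and genes were chosen after the values were seen. Myogenic transcription factors bind E-boxes, and the form searched was CAGCTG, which reads the same on both strands. Promoters were taken from RefSeq GRCm38.p6, and those of a nuclear chromosome and of the mitochondrial genome were left out. A gene counted without a promoter may therefore still have a reference promoter. Of 17 muscle genes past 2-fold higher in ApoE4, 9 had a promoter among those searched. The motif lay within 250 bases before the start of transcription in 5 of those. The motif occurred in 12.8% of the 27025 promoters searched and in 1067 of the 8869 compared genes with such a promoter. A match is only a description of the letters. The promoters of Acta1, Myl1 and Mylpf are shown because these genes encode the actin and myosin light chains of the fibre, with the E-box in capitals at 221, 224 and 51 bases before the start. Each runs 5′ to 3′ on the strand of its gene. Acta1 had 2.11 FPKM in ApoE3 and 59.0 FPKM in ApoE4, and Myl1 had 1.98 and 70.9 FPKM.
Acta1 (chr8:123894776-123895025, - strand): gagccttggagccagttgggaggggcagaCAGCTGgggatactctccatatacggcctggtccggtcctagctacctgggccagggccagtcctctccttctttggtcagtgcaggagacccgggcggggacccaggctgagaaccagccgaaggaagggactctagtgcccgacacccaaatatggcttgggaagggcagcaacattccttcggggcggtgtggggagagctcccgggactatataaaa
Myl1 (chr1:66945057-66945306, - strand): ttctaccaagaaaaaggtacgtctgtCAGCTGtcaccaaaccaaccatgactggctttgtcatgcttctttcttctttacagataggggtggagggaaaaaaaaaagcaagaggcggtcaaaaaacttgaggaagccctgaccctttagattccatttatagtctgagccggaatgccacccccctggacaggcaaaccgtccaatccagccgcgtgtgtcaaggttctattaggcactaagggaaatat
Mylpf (chr7:127211358-127211607, + strand): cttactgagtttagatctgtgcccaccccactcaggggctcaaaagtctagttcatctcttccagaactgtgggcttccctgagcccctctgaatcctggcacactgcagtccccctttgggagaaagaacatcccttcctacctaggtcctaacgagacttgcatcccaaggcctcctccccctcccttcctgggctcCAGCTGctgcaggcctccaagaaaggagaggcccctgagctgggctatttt

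Genes of the liver were the other large group higher in ApoE4. The list of plasma proteins, which hepatocytes secrete into the blood, held 34 genes, of which 24 were listed and 23 reached the minimum level. Of these, 18 were past 2-fold higher in ApoE4, none was past 2-fold higher in ApoE3 and the median was -1.96. The list summed to 82.9 FPKM in ApoE3 and 277 FPKM in ApoE4. Vtn, or vitronectin, its most abundant gene, is also made by pericytes and had 57.5 FPKM in ApoE3 and 57.1 FPKM in ApoE4. Of the 24 genes, 19 were below 1 FPKM in ApoE3 and none was in ApoE4. Such a gene could reach the minimum level only through ApoE4, so the filter set its direction before centring.

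The difference covered proteins of unrelated function. Ahsg, or fetuin A, an inhibitor of calcification, had 0.182 FPKM in ApoE3 and 15.8 FPKM in ApoE4. Hamp, a gene outside the list that encodes the iron hormone hepcidin, had 0.0924 and 6.20 FPKM, and Hp, the haptoglobin that binds free hemoglobin, had 0.386 and 5.90 FPKM. Gc, the carrier of vitamin D, had 0.142 and 4.95 FPKM. Mup3, Mup10 and Mup20, urinary pheromone proteins, and Ambp, the precursor of bikunin, were listed at 0 in ApoE3, with 13.2, 6.49, 6.43 and 1.73 FPKM in ApoE4. Mup7 and Mup22, outside the list, were also at 0 in ApoE3, with 11.6 and 8.23 FPKM in ApoE4. The Mup genes and the Serpina1 genes are families of close paralogs between which reads can be split, so their separate values are uncertain.

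Enzymes of the liver were fewer in the table. Of 22 genes, 9 were listed, 5 reached the minimum level and 1 was past 2-fold higher in ApoE4, with a median of -0.36. That gene was Cyp2e1, which oxidizes ethanol, with 0.720 FPKM in ApoE3 and 4.95 FPKM in ApoE4. Sardh, a mitochondrial enzyme and the most abundant member, had 38.6 and 62.5 FPKM, and the list summed to 53.4 FPKM in ApoE3 and 99.9 FPKM in ApoE4. Cyp3a11 and Fabp1 were listed at 0 in ApoE3, with 1.49 and 1.48 FPKM in ApoE4. Cyp2a5, an enzyme of nicotine and coumarin breakdown outside the list, was at 0 in ApoE3 and had 8.64 FPKM in ApoE4. Cps1, the first enzyme of the urea cycle and among the most abundant transcripts of liver, was not among the listed genes. Its absence from the rows does not show that it was not expressed. Whether liver RNA or reads of liver RNA entered the libraries was not tested.

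The promoters of these genes were searched for 6 letters of the site bound by HNF1, a transcription factor of hepatocytes, again after the values were seen. The letters GTTAAT were searched on both strands. Of 19 liver genes past 2-fold higher in ApoE4, 14 had a promoter in the same searched set and 7 of them held the motif. It occurred in 6.52% of the 27025 promoters searched and in 3.99% of the 8869 compared genes. Of the 7 genes, 5 are the Serpina1 paralogs, whose promoters share their sequence, and Alb and Gc are the others. Those of Alb, the gene of serum albumin, and Serpina1a, a gene of alpha-1-antitrypsin, are shown from RefSeq GRCm38.p6 with the motif in capitals, 32 and 21 bases before the start. Alb had 0.0931 FPKM in ApoE3 and 5.36 FPKM in ApoE4, and Serpina1a had 0.195 and 7.00 FPKM.
Alb (chr5:90460620-90460869, + strand): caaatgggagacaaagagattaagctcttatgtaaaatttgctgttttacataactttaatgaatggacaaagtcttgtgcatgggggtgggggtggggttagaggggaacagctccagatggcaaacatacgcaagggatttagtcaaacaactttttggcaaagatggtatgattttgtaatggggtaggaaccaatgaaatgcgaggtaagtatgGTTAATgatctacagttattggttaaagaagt
Serpina1a (chr12:103863620-103863869, - strand): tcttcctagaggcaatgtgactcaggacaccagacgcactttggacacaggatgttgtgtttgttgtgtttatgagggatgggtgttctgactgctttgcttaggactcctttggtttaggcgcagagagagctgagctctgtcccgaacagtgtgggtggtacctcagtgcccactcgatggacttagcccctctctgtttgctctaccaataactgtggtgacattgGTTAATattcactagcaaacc

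Lists of further tissues gave smaller or mixed differences. Of 12 genes of the choroid plexus, which secretes cerebrospinal fluid, 5 were listed, with 2 past 2-fold higher in ApoE3, 1 past 2-fold higher in ApoE4 and a median of -0.15. Sostdc1, an inhibitor of BMP and Wnt signals, had 3.92 FPKM in ApoE3 and 0.914 FPKM in ApoE4, and Aqp1, a water channel, had 2.32 and 0.728 FPKM. Ttr, the thyroid hormone carrier that liver also makes, had 0.173 FPKM in ApoE3 and a ratio of -2.02. Enpp2, also made by oligodendrocytes, was the most abundant member with 1569 and 2344 FPKM, and the list summed to 1593 FPKM in ApoE3 and 2378 FPKM in ApoE4. The median was 0.61 without Ttr, so 1 gene set its sign.

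Bone, fat and blood differed little as groups. Of 11 listed genes for bone and cartilage, 1 was past 2-fold higher in ApoE4, Ucma of growth cartilage, with 22.1 FPKM in ApoE3 and 64.1 FPKM in ApoE4. That list had a median of -0.12 and summed to 319.7 and 491 FPKM, with Col11a2 the most abundant. Of 6 listed adipocyte genes, Trarg1 was higher in ApoE3, and Cfd, the secreted protease adipsin, was listed at 0 in ApoE3 and had 6.27 FPKM in ApoE4. The adipocyte median was -0.29 and the sums were 56.8 and 84.8 FPKM, with Thrsp the most abundant. Of 6 listed erythrocyte genes, none was past 2-fold, and the median of 0.08 is negative before centring. Hba-a1, a chain of hemoglobin and the most abundant of them, had 458 FPKM in ApoE3 and 589.7 FPKM in ApoE4, and the list summed to 1409 and 1842 FPKM. The part of blood and the other tissues in the ratios was not tested.

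Hox genes, which mark position along the body axis, were near the median of all genes where they were abundant. The thoracic groups 6 to 9 had a median of 0.03 over 9 genes, negative before centring, and their most abundant gene Hoxb8 had 559.8 FPKM in ApoE3 and 692 FPKM in ApoE4. The caudal groups 10 to 13 had 5 genes at the minimum level and a median of 0.20, negative before centring. Without a minimum level the median was 0.67. Below that level, Hoxb13 had 1.92 FPKM and Hoxc13 1.17 FPKM in ApoE3, and both were listed at 0 in ApoE4. Hoxc12, at 2.58 FPKM in ApoE3 and 1.01 FPKM in ApoE4, was past 2-fold. The cervical groups 1 to 5 had a median of 0.11 over 13 genes, negative before centring, and none past 2-fold.

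**Figure D3:**
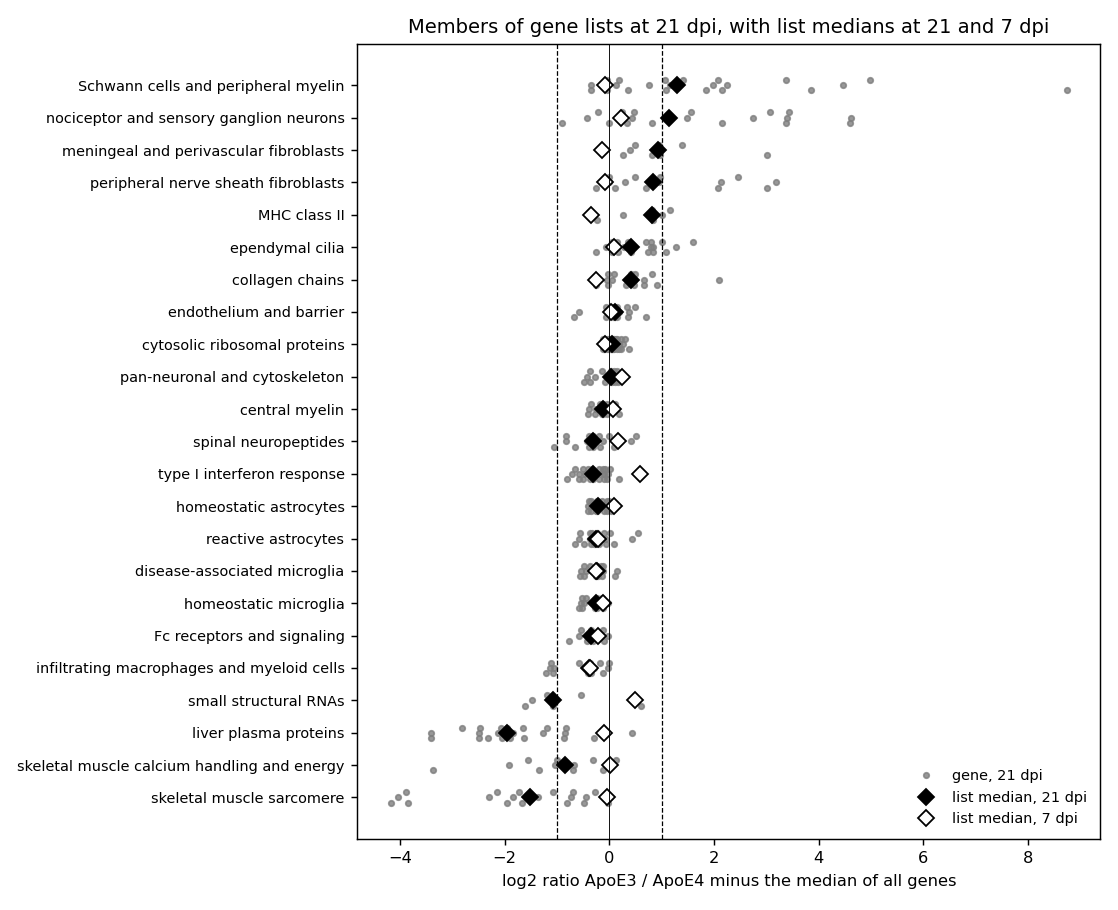
For 23 of the 73 lists, each grey point is a gene at 21 dpi by its centred log2 ratio, with values above 0 higher in ApoE3. Black diamonds are list medians at 21 dpi and open diamonds those at 7 dpi, and dashed lines mark 2-fold. The black diamonds run from 1.29 for Schwann cells to -1.96 for liver plasma proteins, while the open ones of these 23 lists stay between -0.37 and 0.58. A black diamond between 0 and 0.42 is negative before centring.

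Of the cells of the injured cord, macrophages had the most genes past 2-fold, all higher in ApoE4. Infiltrating macrophages come from blood monocytes and fill the lesion core. Of 15 list members at the minimum level, 5 were past 2-fold higher in ApoE4, 14 had centred ratios below 0 and the median was -0.38. The list summed to 553 FPKM in ApoE3 and 1107 FPKM in ApoE4. Lyz2, the lysozyme of macrophages and the most abundant member, had 212 and 426 FPKM, a ratio of -0.58.

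The macrophage genes past 2-fold included surface proteins and a protease. Cd52, a small glycoprotein of leukocytes, had 60.9 FPKM in ApoE3 and 181 FPKM in ApoE4. Cd48, a ligand for receptors of T and natural killer cells, had 22.7 and 66.4 FPKM. Ms4a7 had 9.57 and 28.6 FPKM and Ms4a6d had 3.74 and 13.8 FPKM, both members of a family of membrane proteins of myeloid cells. Mmp12, the elastase of macrophages, had 7.63 FPKM in ApoE3 and 23.9 FPKM in ApoE4. It was the 1 gene past 2-fold among 24 listed metalloproteases and their inhibitors, whose median was -0.08. Olr1, a scavenger receptor for oxidized lipoprotein, had 1.05 and 8.42 FPKM, and Cd300a, an inhibitory receptor chosen after its values were seen, had 6.37 and 26.1 FPKM.

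Inflammatory signals held fewer large differences. Of 20 listed chemokines and receptors, 1 was past 2-fold in each direction and the median was -0.04. Ccl4, which attracts monocytes and T cells, had 8.26 FPKM in ApoE3 and 31.9 FPKM in ApoE4, and its neighbour in function Ccl3 had 11.3 and 31.8 FPKM, a ratio of -0.99. Ccl19, which guides dendritic cells, was low and on the other side, with 2.11 and 0.907 FPKM. Il15, a cytokine that sustains natural killer cells, was chosen after its values were seen and was past 2-fold, with 34.0 FPKM in ApoE3 and 116 FPKM in ApoE4. Of 7 listed neutrophil genes, none was past 2-fold and the median was -0.33, with 10.3 and 27.4 FPKM for S100a9. Of 23 genes of T, B and natural killer cells, 5 were listed and 4 reached the minimum level, with a median of -0.36 and none past 2-fold. Their most abundant member Ccl5, a chemokine of T cells, had 16.0 FPKM in ApoE3 and 34.8 FPKM in ApoE4, and Lck, a kinase of T cells, had 11.0 and 8.06 FPKM.

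Resident microglia and their receptors lay on the same side as macrophages without passing 2-fold. All 14 listed genes of homeostatic microglia were below the median of all genes, with a median of -0.26, and the list summed to 2196 FPKM in ApoE3 and 3989.6 FPKM in ApoE4. All 11 listed Fc receptors and their signaling proteins were also below it, with a median of -0.35. Aif1, the widely used marker Iba1, had 166 FPKM in ApoE3 and 319.6 FPKM in ApoE4, a ratio of -0.52. The 3 chains of the complement starter C1q, which microglia secrete, had similar values, with 622 and 1139 FPKM for C1qc. Disease-associated microglia, a state that takes up lipid and debris, had a median of -0.24 over 17 genes, and Spp1, or osteopontin, had 918 FPKM in ApoE3 and 1809 FPKM in ApoE4. Complement as a whole had a median of -0.24 over 18 genes, led in abundance by C4b with 2739 and 4439 FPKM. Lysosomal genes had a median of -0.15 over 21 genes, and Psap had 5827 and 8679.7 FPKM. No gene of these 5 lists was past 2-fold.

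Astrocyte genes were below the median of all genes by a similar amount. Of 21 listed genes of reactive astrocytes, 17 were below it and none was past 2-fold, with a median of -0.25. Gfap, the intermediate filament of the glial scar, had 8201 FPKM in ApoE3 and 15313 FPKM in ApoE4, a ratio of -0.48. Serpina3n had 605 and 1030.1 FPKM, and Vim, or vimentin, had 238 and 333 FPKM. Of 20 listed genes of homeostatic astrocytes, 18 were below it, with a median of -0.21 and none past 2-fold. Aqp4, the water channel of astrocyte endfeet, had 833 and 1472 FPKM, whereas Aldoc, a glycolytic enzyme, had 3014 and 4216 FPKM and a ratio of -0.06.

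Interferon genes, which respond to nucleic acid and virus-like signals, had a median of -0.31 over 25 listed genes, with 23 below the median of all genes and none past 2-fold. Ifit3 had 212 FPKM in ApoE3 and 403 FPKM in ApoE4, and Ifi27, the most abundant, had 878 and 1265 FPKM. The GTPases that interferon induces against intracellular pathogens had a median of -0.15 over 14 genes, and none was past 2-fold.

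Genes of the neurons of the cord were close to the median of all genes. General neuronal genes had a median of 0.04 over 17 genes, genes of presynaptic release one of 0.03 over 24, and ion channels one of 0.01 over 31, and all 3 medians are negative before centring. None of these genes was past 2-fold. Rab3a, which tethers synaptic vesicles, had 2179 FPKM in ApoE3 and 2409 FPKM in ApoE4, and Syp, or synaptophysin, had 469 and 616 FPKM. Map2, a marker of dendrites, had 2879 and 4989.9 FPKM, a ratio of -0.37. The neurofilament genes, which set the calibre of axons, were in the same range, with -0.27 for Nefl, -0.43 for Nefh and -0.49 for Nefm.

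Classes of neurons and their signals differed in the same small range. Genes of GABA and glycine neurons had a median of -0.13 over 15 genes and none past 2-fold. Of 10 listed motor neuron genes, Isl1 was the 1 past 2-fold, and the median was -0.20. Chodl, a marker of fast motor neurons, had 37.2 FPKM in ApoE3 and 76.4 FPKM in ApoE4, and Slc18a3, the transporter that loads acetylcholine into vesicles, had 28.3 and 54.4 FPKM. Of 18 listed spinal neuropeptides, 15 were below the median of all genes, with a median of -0.31. Crh was past 2-fold higher in ApoE4, with 4.83 FPKM in ApoE3 and 15.2 FPKM in ApoE4. Tac1, which encodes substance P, had 78.8 and 188 FPKM, a ratio of -0.82, and Penk, the enkephalin precursor and most abundant member, had 524 and 763 FPKM.

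Growth and repair were followed through 3 lists. Neurotrophins and their receptors had 3 of 14 genes past 2-fold higher in ApoE3, with Ngfr and Gfra3, genes of Schwann cells and sensory neurons, among them. The median of that list was 0.14, negative before centring. Ntrk2, the receptor for BDNF in the cord, had 402 FPKM in ApoE3 and 559 FPKM in ApoE4. Regeneration-associated genes had a median of -0.14 over 22 genes and none past 2-fold. Gap43, a growth cone protein, had 136 and 236 FPKM, and Sprr1a, which injured neurons induce, had 76.2 and 143 FPKM. Axon guidance genes had a median of -0.03 over 31 genes and none past 2-fold, and Sema3a, a repellent of growing axons, had 26.2 FPKM in ApoE4 and a ratio of -0.64.

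Oligodendrocytes gave values near the median of all genes, unlike Schwann cells. Central myelin had a median of -0.11 over 16 genes and none past 2-fold, with 255 FPKM in ApoE3 and 372 FPKM in ApoE4 for Mog, a protein found only in central myelin. Oligodendrocyte precursors had the same median of -0.11 over 15 genes, with 42.0 and 58.8 FPKM for their growth factor receptor Pdgfra. Proteoglycans and perineuronal nets, the matrix around cord neurons, had a median of -0.10 over 14 genes. Hapln3, a link protein of proteoglycans in this list, was past 2-fold higher in ApoE4, with 1.13 and 5.52 FPKM. Whether it belongs to the matrix around neurons here was not tested.

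Vessels were on the other side of 0 by a small amount that centring decides. The endothelium had a median of 0.11 over 19 genes and pericytes with smooth muscle one of 0.11 over 14 genes, both negative before centring, and none of these genes was past 2-fold. Cldn5, the tight junction protein of the blood-spinal cord barrier, had 69.3 FPKM in ApoE3 and 87.9 FPKM in ApoE4. Vwf, the clotting protein of endothelial cells, had 50.8 and 41.4 FPKM, a ratio of 0.71.

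Lipid handling is the field in which ApoE acts. Of 18 listed genes for lipid uptake, storage and efflux, 16 were below the median of all genes, with a median of -0.20, and Olr1 was the 1 past 2-fold, higher in ApoE4. The lipoprotein genes Apoa1, Apoa2 and Apoc3, also past 2-fold higher in ApoE4, belong to the liver list. Abca1, which loads cholesterol onto ApoE particles, had 37.5 FPKM in ApoE3 and 63.1 FPKM in ApoE4. Clu, the other main lipid carrier of astrocytes, had 2440.1 and 3975 FPKM, and Lrp1, a receptor for ApoE, had 179.8 and 255 FPKM. Apoe itself had a centred ratio of -0.21 and was not listed at 7 dpi. Among 5 listed genes of the chromosomal neighbourhood of Apoe, none was past 2-fold, and Apoc1 had 120.1 and 176 FPKM. Cholesterol synthesis had a median of 0.03 over 20 genes, negative before centring, and none past 2-fold. Of 14 listed genes for heme and iron handling, the 2 past 2-fold were Hamp and Hp, and the median was -0.27. Fth1, the heavy chain of the iron store ferritin, had 14589.8 FPKM in ApoE3 and 22271 FPKM in ApoE4.

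Most of the small structural RNAs were past 2-fold. Of 7 listed genes, 5 were past 2-fold higher in ApoE4, none was past 2-fold higher in ApoE3 and the median was -1.07. Rn7sk, which holds back transcription elongation, had 121 FPKM in ApoE3 and 373 FPKM in ApoE4. Rpph1, the RNA of ribonuclease P, had 10.3 and 44.8 FPKM. Rn7s1 and Rn7s2, near-identical RNAs of the signal recognition particle whose reads can be split, had 75.5 and 212 FPKM and 76.0 and 216 FPKM. Such RNAs largely lack poly(A) tails, and how well the libraries kept them was not tested. Snora73b was on the other side, with 6.88 FPKM in ApoE3 and 5.96 FPKM in ApoE4, and 3 of 8 snoRNA genes compared were past 2-fold in each direction. The list summed to 306 FPKM in ApoE3 and 889 FPKM in ApoE4.

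Precursors of microRNAs were at both ends of the ranking, with Mir339 listed at 0 in ApoE4 and at 6.60 FPKM in ApoE3, and Mir1188 listed at 0 in ApoE3 and at 8.53 FPKM in ApoE4. These rows measure a precursor or its host transcript and not the mature RNA, and values of so short a gene are uncertain. Of 10 miRNA rows compared, 3 were past 2-fold in each direction. The mature arms of both are shown from RefSeq GRCm38.p6, since they are what each gene would add to the cell. Capitals mark the seed, bases 2 to 8, and no seed is shared between the 4 arms.
mmu-miR-339-5p (chr5:139369708-139369730, - strand): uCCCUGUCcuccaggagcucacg
mmu-miR-339-3p (chr5:139369673-139369695, - strand): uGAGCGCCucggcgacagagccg
mmu-miR-1188-5p (chr12:109611841-109611861, + strand): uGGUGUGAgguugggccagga
mmu-miR-1188-3p (chr12:109611877-109611901, + strand): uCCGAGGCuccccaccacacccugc

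Genes that every cell uses lay at the median of all genes. Cytosolic ribosomal proteins had a median of 0.06 over 37 genes and nuclear genes of oxidative phosphorylation one of 0.02 over 25, both negative before centring, and the proteasome had one of -0.01 over 24. None of these genes was past 2-fold. Rplp1 had 1869 FPKM in ApoE3 and 2389.8 FPKM in ApoE4, and Cox4i1 had 1687 and 2134 FPKM. Splicing factors had a median of -0.10 over 22 genes, with none past 2-fold. Chromatin regulators with long transcripts had a median of -0.19 over 19 genes, of which Ankrd12, with 57.3 and 174 FPKM, was past 2-fold higher in ApoE4. Stress and metabolism were also near 0, with medians of 0.06 for ATF4 targets, 0.03 for heat shock proteins, 0.02 for hypoxia and glycolysis and 0.01 for NRF2 targets, all negative before centring, and -0.14 for chaperones of the endoplasmic reticulum. The cell cycle had a median of -0.06 over 16 genes, the TGF-beta pathway one of -0.03 over 23 and the circadian clock one of -0.03 over 17, with none past 2-fold. Uty, of the Y chromosome, had 77.6 and 74.1 FPKM, and the 4 listed Y-linked genes had a median of 0.00. None of the 15 genes of the mitochondrial genome was listed.

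Genes past 2-fold were rare at 7 dpi, with 0.287% of 13951 higher in ApoE3 and 0.172% higher in ApoE4. Few of those past 2-fold at 21 dpi were past it at 7 dpi, and at these shares few would be in any set of this size. Of the 137 genes higher in ApoE3, 81 were listed at 7 dpi, with a median of -0.06 there, and of the 126 higher in ApoE4, 66 were listed, with a median of -0.07. A single gene was past 2-fold higher in ApoE3 at both times and a single one higher in ApoE4, both picked out by that count after their values were seen. Past 2-fold in opposite directions at the 2 times were 2 of the genes higher in ApoE3 and 2 of those higher in ApoE4 at 21 dpi, counting genes with a mean of at least 1 FPKM at 7 dpi, and 2 more of the latter were below that mean. Mid1, a ubiquitin ligase gene at the edge of the pseudoautosomal region, had 159.9 FPKM in ApoE3 and 63.2 FPKM in ApoE4 at 7 dpi and 81.1 and 52.2 FPKM at 21 dpi. Snora17, a small nucleolar RNA, had 1.93 and 6.73 FPKM at 7 dpi and was listed at 0 in ApoE3 with 5.09 FPKM in ApoE4 at 21 dpi. The list medians at 7 dpi were -0.08 for Schwann cells, 0.22 for sensory ganglion neurons, -0.05 for the sarcomere and -0.10 for liver plasma proteins. Fewer members were listed then, with 12 of the 25 sensory genes and 5 of the 34 plasma protein genes. Some other lists had similar medians at both times, with -0.38 at 21 dpi and -0.37 at 7 dpi for macrophages. Disease-associated microglia had -0.24 and -0.25, and reactive astrocytes -0.25 and -0.21. Further lists turned sign, with 0.94 and -0.14 for meningeal fibroblasts and 0.42 and -0.25 for collagen chains. Interferon-induced GTPases had -0.15 and 0.63. The difference between the time points was not tested.

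Properties of the transcripts moved with the counts in part. Of the 126 genes higher in ApoE4, 70 were among the 2238 genes with the shortest transcripts, with a median of 1.32 kb, and 9 among the 2238 with the longest, with a median of 6.83 kb. For the genes higher in ApoE3 these counts were 38 and 18. The median centred ratio went from -0.10 in the 2238 genes of lowest GC content, with a median of 41.5%, to 0.07 in the 2238 of highest, with 58.0%, where it is negative before centring. Lengths and GC content came from GENCODE vM21. They were found for 98.2% of the genes compared and for 94.3% of those past 2-fold. The part of length and GC content in the differences was not tested. Pde2a was on 2 rows with opposite ratios, 156 and 70.9 FPKM on the first and 18.7 and 136 FPKM on the second. Its direction thus depended on the row read, and the reason was not tested.

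With 1 value per group, variation between mice cannot be set apart from a difference between the genotypes. The lists with the most genes past 2-fold mark peripheral nerve, muscle and liver, tissues that lie outside the cord, and the amount of each in the dissected pieces was not measured. These lists were chosen with earlier results of these data known, so their rank is partly set by that choice. The filter also set the direction of members below 1 FPKM in 1 group. A general shift between the groups was subtracted, and list medians between 0 and 0.42 depend on that step. Of the genes past 2-fold, 57 of 137 and 61 of 126 had a mean under 5 FPKM. The direction of every difference rests on the reading of the genotype columns given at the start, and all values are RNA levels that do not show protein.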

How the data were processed

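RNA-seq libraries (TruSeq v2, single-end) of spinal cord from ApoE3 and ApoE4 mice at 7 and 21 dpi were analysed from the processed table. The authors aligned the reads, after reducing all libraries to a common number, and deposited 1 value per gene and group in FPKM with 1 added. The submitters' processing notes name STAR 2.5.4b, Bowtie2 2.1.10, SAMtools 0.1.7 and Cuffdiff 1.3.0. The genome build is not given in the sources used here. The reads behind each gene are unknown, so no counting error can be given. In the same table stand p-values, q-values, fold changes and log2 fold changes by the authors, and in a second table the log2 fold changes of their selected genes. None of these was used. There were 0 value columns without a group.

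For each row, 1 was subtracted, and log2 of the ratio of FPKM plus 1 in ApoE3 to that in ApoE4 was computed. Rows with a mean of at least 1 FPKM were kept, which left out 74 rows at 21 dpi, and the median of the kept rows was subtracted. Genes past 2-fold on this scale were counted. With 1 value per group no test was possible. A symbol on 2 rows was counted on both, and lists took the row with the higher mean. Of the rows at 21 dpi, 11427 carried a current symbol of the RefSeq GRCm38.p6 tables, 3 an older symbol and 44 neither.

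The members and the 73 gene lists were chosen with earlier results of these data known. The genes named are the 15 highest and 15 lowest ratios, list members past 2-fold (at most 8 per list) or otherwise the 3 most abundant, defining or most abundant genes and those at 0 of other tissues, the study's qPCR and staining panel, and the 5 highest levels in either group. Other list members and genes outside the lists were named after their values were seen. Alternatives were other pseudocounts, minimum levels, fold thresholds and ways of centring, leaving out genes of other tissues, members shared between lists or the most extreme member, and, added after seeing the data, reading the genotypes by column number and keeping protein-coding rows only. Computations used Python 3.11.15, numpy 2.4.6 and matplotlib 3.10.9, and were tested on simulated data.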

Additional observations from a re-analysis of the deposited data

Results flagged for a closer look

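For 3 lists, the median centred log2 ratio lay on opposite sides of 0 at 21 and 7 dpi, in each case by at least 1.2-fold. With 1 value per group and time, these differences between the time points were not tested. MHC class II had a median of 0.82 at 21 dpi and -0.35 at 7 dpi. Cd74, which had 47.2 FPKM in ApoE3 and 35.8 FPKM in ApoE4 at 21 dpi, had 72.3 and 95.9 FPKM at 7 dpi, and H2-Ab1 went from 30.7 and 41.2 FPKM at 7 dpi to 18.0 and 13.3 FPKM. Small structural RNAs had a median of -1.07 at 21 dpi and 0.49 at 7 dpi. The same turn was seen in the signal recognition particle gene Rn7s1, with 90.4 FPKM in ApoE3 and 39.3 FPKM in ApoE4 at 7 dpi and 75.5 and 212 FPKM at 21 dpi. The type I interferon response had a median of -0.31 at 21 dpi and 0.58 at 7 dpi. Usp18, which limits interferon signaling, had 8.14 and 4.40 FPKM at 7 dpi and 3.58 and 9.79 FPKM at 21 dpi.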

How the results depend on the processing

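At 21 dpi, 137 genes were past 2-fold higher in ApoE3 and 126 higher in ApoE4. The ApoE4 count was 217 with a pseudocount of 0.1 and 237 with 0.01, where low genes gain larger ratios. A minimum mean of 5 FPKM gave 80 and 64 genes and a minimum of 10 gave 54 and 43, since fewer genes were compared. Beyond such effects of construction, the cause of the moved counts was not tested. Without subtraction of the median the counts were 71 and 419. A 1.5-fold threshold gave 375 and 408 and a 4-fold threshold 37 and 37. The other planned settings kept both counts within 1.5 times, with 106 and 88 when genes of other tissues were left out. ApoE3 held 52.1% of the genes past 2-fold and 40.8% with a pseudocount of 0.01. Protein-coding rows only, chosen after seeing the data, gave 122 and 101.

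The median log2 ratio before centring lay between -0.45 and -0.42 in the planned settings. With the genotypes read by the numbering of the columns, chosen after seeing the data, it was 0.42 and all directions turned. Of 72 list medians, 21 change sign without centring and 7 with the ribosomal protein and proteasome median subtracted, and none of these was past 2-fold. Of 226 named genes, 41 and 46 moved by more than 1.5-fold or across the threshold with the lower pseudocounts, and 15 did without centring. No named gene past 2-fold turned to the other side in the planned settings. Depth per gene is unknown, and ratios of genes of a few FPKM depend most on the pseudocount. No paired analysis was possible because each group has 1 value.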

Other observations

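Some genes past 2-fold belong to no list and were chosen after their values were seen. Wnt6, a secreted Wnt ligand, was higher in ApoE3, with 8.55 FPKM in ApoE3 and 2.46 FPKM in ApoE4, as was Angpt2, which loosens vessel walls, with 2.36 and 0.529 FPKM. On the same side, Lamb1, a chain of laminin, had 8.45 and 3.33 FPKM, and Gata3, a transcription factor of some spinal interneurons and of T cells, had 7.98 and 3.59 FPKM. Higher in ApoE4 were Slc8a1, the sodium-calcium exchanger, with 107 FPKM in ApoE3 and 326 FPKM in ApoE4, and the mitosis genes Prc1, with 6.14 and 21.4 FPKM, and Spc25, with 3.06 and 10.9 FPKM. The cell cycle list they would join by function had no gene past 2-fold.

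Of 42 compared rows whose names matched no reference table, 12 were past 2-fold higher in ApoE4 and 1 higher in ApoE3. Among protein-coding rows the shares were 0.928% and 1.12%. The largest ratio of an unmatched name with a level in both groups was that of LOC115490493, with 1.83 FPKM in ApoE3 and 22.9 FPKM in ApoE4.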
